A study of Mus musculus with 6 samples.

Results

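The genes described here encode the proteins of the cytosolic ribosome in mouse striatal progenitor cells. They were the protein-coding genes of the annotation GENCODE M21 whose symbols begin with Rpl or Rps and a digit, plus Rpsa and Fau, without the kinase genes whose symbols begin with Rps6k. This rule gave 90 of 21911 protein-coding genes. Of these, 43 encode proteins of the large subunit and 32 encode proteins of the small subunit, and these 75 are called core genes below. Another 7 are paralogues with their own symbols (Rpl3l, Rpl7l1, Rpl10l, Rpl22l1, Rpl36al, Rpl39l and Rps27l), and 7 carry pseudogene or retrogene names (Rpl10-ps3, Rpl36-ps4, Rpl36a-ps1, Rpl9-ps1, Rpl9-ps6, Rps12-ps3 and Rps27rt). The last, Rps19bp1, encodes a protein that binds Rps19 and is not itself a ribosomal protein. The genes lie on 20 chromosomes, with 13 on chromosome 7 and 4 on X (Rpl10, Rps4x, Rpl36a and Rpl39).

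H3K4me3, the trimethylated form of a lysine on histone H3, marks the nucleosomes around active transcription start sites. The study profiled it by ChIP-Seq in STHdh cells, which are immortalised striatal progenitors from mice and a cell culture model of Huntington's disease. Q7SST was the wild-type line STHdhQ7 with vehicle, and Q111SST was the mutant line STHdhQ111, homozygous for an expanded glutamine tract in huntingtin, with vehicle. The other 4 conditions were STHdhQ111 cells given cyproheptadine, loxapine, the diacylglycerol kinase inhibitor II (DKI) or meclizine, each at 10 uM. All 6 conditions were held for 24 hours without serum. Both genotypes are female lines, each is a single conditionally immortalised line, and genotype therefore cannot be told apart from line.

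There was 1 deposited peak list per condition, so no value below has a replicate error and no test between conditions was made. The lists held 30758 (DKI) to 45564 (loxapine) peaks, and the depth behind them is unknown. Of the neural progenitor markers, Vim, Dlx1 and Dlx2 had a promoter peak in all 6 lists, Nes and Sox2 in 5, Pax6 in 4, and Gsx2 in Q7SST only. Of 10 markers of other tissues, 7 had none in any list. The astrocyte marker Gfap had one in 5 lists, as many as Nes and Sox2, the microglial marker Aif1 in 2 and the oligodendrocyte marker Mbp in 1. Strength ranks, which are percentiles among marked genes, were low for Gfap (5.54 to 14.1) and equally for the progenitor markers Dlx2 (6.11 to 9.81) and Pax6 (1.03 to 4.81), while Dlx1 stood at 66.4 to 83.9.

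Ribosomal proteins are produced in step with ribosomal RNA, and their genes are among the most strongly transcribed in growing cells. Their messages belong to the TOP class, which begin with a cytosine and a run of pyrimidines at the 5′ end and whose translation follows nutrient and growth factor signals through mTOR. Their promoters usually lie in CpG islands and lack a TATA box, and many of their introns hold small nucleolar RNAs (snoRNAs) that guide the modification of ribosomal RNA.

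Promoter sequences were read from GRCm38 for genes at the extremes of the measurements. Each window holds 80 bases before and 20 from the start of the principal transcript, 5′ to 3′ on the gene's strand, and capitals mark the longest run of C and T that touches the 10 bases on either side of the start, or the first of 2 equal runs in Rps27a, Rpl3 and Rpl3l. Rps27a had the highest mean strength rank, Rpl3 had the widest domain summed over its starts, and Rpl3l is the paralogue of Rpl3 that had no peak in any list. At the principal start none of these genes had a C followed by 4 pyrimidines. The marked run held 8 bases in Rps27a, 3 in Rpl3 and 4 in Rpl3l, and each ended before the start.
Rps27a, chr11:29548090-29548189, minus strand: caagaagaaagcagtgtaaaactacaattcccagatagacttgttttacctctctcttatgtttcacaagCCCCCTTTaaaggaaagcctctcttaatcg
Rpl3, chr15:80083387-80083486, minus strand: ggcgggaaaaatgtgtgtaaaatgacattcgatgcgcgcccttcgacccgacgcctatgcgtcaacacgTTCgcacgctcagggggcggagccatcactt
Rpl3l, chr17:24727740-24727839, plus strand: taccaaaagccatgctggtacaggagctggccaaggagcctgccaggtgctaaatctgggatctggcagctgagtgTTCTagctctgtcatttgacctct

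The next windows were chosen after their values were seen, to show long pyrimidine tracts. The tract held 19 bases in Rps24 and 15 in Rpl22.
Rps24, chr14:24490638-24490737, plus strand: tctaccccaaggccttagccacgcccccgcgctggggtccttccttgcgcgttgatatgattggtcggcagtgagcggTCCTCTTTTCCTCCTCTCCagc
Rpl22, chr4:152325787-152325886, plus strand: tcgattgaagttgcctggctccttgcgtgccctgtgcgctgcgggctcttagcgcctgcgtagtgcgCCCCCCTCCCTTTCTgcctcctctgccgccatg

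Over the window of 250 bases before and 50 after the principal start, some features that the symbol rule did not use were more frequent in the core genes than in other marked genes, though each was present in a minority of them. A run of at least 8 pyrimidines near the start was found in 25 of 75 core genes (33.3%), against 12.6% of the 11710 protein-coding genes that were marked in all 6 lists and had a readable window. A C at the annotated start followed by 4 pyrimidines was found in 8 core genes (10.7%) against 2.22%. RefSeq start sites could be matched for 56 core genes, and there a gene counted if any of its RefSeq starts had the feature. The run was then found in 27 (48.2%) and the C followed by 4 pyrimidines in 13 (23.2%), against 16.5% and 2.88% of 9205 genes. The readings differed in annotation, in starts per gene and in the genes covered, and the part of each was not tested. The pyrimidine run was more frequent in the core genes than in all marked genes with both annotations, while 9 of 78 mitochondrial ribosomal protein genes (11.5%) held it.

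The TATA box letters TATAAA, searched on the gene's strand between 45 and 15 bases before the start, were found in 0 of 75 core promoters and in 1.11% of the marked genes. The core windows had a median GC content of 55.7% against 61.0%, and a median CpG observed over expected ratio of 0.854 against 0.777. They were thus less rich in G and C than other marked promoters, while the CpG ratio, which is set against what the C and G content predicts, was no lower. Among 5 motifs searched on both strands, CCGGAAG, the core of ETS family sites, was in 22 core windows (29.3%) against 18.5%, and AAGATGG, the core of YY1 sites, was in 11 (14.7%) against 7.57%. GGGCGG, the core of Sp1 sites, was in 38 (50.7%) against 65.3%, CCAAT in 21 (28.0%) against 39.4%, and the E box CACGTG in 8 (10.7%) against 10.1%. In mitochondrial ribosomal protein promoters CCGGAAG was found in 37.2%, AAGATGG in 17.9% and GGGCGG in 48.7%, so these frequencies were not particular to the cytosolic ribosome. A match is a string of letters in these windows and was not tested as a binding site.

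A gene counted as marked where any of its annotated starts had a peak no more than 1 kb away. All 75 core genes were marked in each of the 6 lists, as were Rpl7l1, Rpl22l1, Rpl36al, Rps27l and Rps19bp1. In total 80 of 90 genes were marked in all 6 lists, 3 in some and 7 in none. Among all 21911 protein-coding genes, 11713 were marked in all 6 lists and 8112 in none. List by list, 80 of the 90 were marked in Q7SST, 83 in Q111SST, and 81 with each of the 4 compounds, where the share of all protein-coding genes marked was 59.9% (Q7SST), 58.4% (Q111SST), 55.4% (cyproheptadine), 58.1% (loxapine), 55.8% (DKI) and 58.6% (meclizine). With peaks of any score counted, no gene of either subunit lost or gained its mark between any of the conditions. With a minimum score of 47 this did not hold, as for Rpl12, at 55 in Q111SST and 36 with cyproheptadine.

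The genes without a mark were all paralogues or copies. Rpl3l encodes a form of Rpl3 known from striated muscle, and Rpl10l and Rpl39l encode forms of Rpl10 and Rpl39 known from the testis. None of the 3 had a promoter peak in any list. The peak nearest to Rpl3l lay 3404 to 3452 bp from its start and was the promoter peak of Ndufb10, a mitochondrial complex I subunit, in all 6 lists. The parent genes Rpl3, Rpl10 and Rpl39 were marked throughout, while in the pairs Rpl7 and Rpl7l1, Rpl22 and Rpl22l1, Rpl36a and Rpl36al, and Rps27 and Rps27l both genes were marked. Rps4l, a paralogue of Rps4x, is annotated as a pseudogene and fell outside the rule.

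Of the 7 genes with pseudogene or retrogene names, Rpl10-ps3, Rpl36a-ps1, Rpl9-ps6 and Rps27rt had no promoter peak. Rpl36-ps4 was marked in Q111SST and with cyproheptadine, loxapine and DKI, by peaks that began 801 to 916 bp from its start with scores of 18 to 53. With meclizine a peak with a score of 53 began 1016 bp away, just outside the window. Rpl9-ps1 was marked in Q111SST with a score of 13 and with meclizine with a score of 23, by peaks 535 and 540 bp from its start. Rps12-ps3 was marked in Q111SST only, by a peak with a score of 15 that covered its start. The peaks of Rpl9-ps1 and Rps12-ps3 were low among all peaks of their lists, at percentiles 5.80 to 16.3, while those of Rpl36-ps4 stood at percentiles 19.2 (cyproheptadine) to 56.2 (loxapine). Intronless copies share sequence with their parent genes, and how reads that match several places were handled is not given in the sources used here, so the values of these copies are uncertain. Among 290 annotated pseudogenes named after genes of the set, 9 (DKI) to 22 (loxapine) were marked, or 3.10% to 7.59%.

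The 1 kb rule does not require a peak to lie over the start itself, yet in most of the genes it did. An annotated start was inside a peak in 78 of the 80 marked genes of Q7SST, 80 of the 83 of Q111SST and 77 of the 81 of cyproheptadine, and in 79 of 81 for loxapine, DKI and meclizine. The corresponding shares of all marked protein-coding genes were 88.5%, 88.3%, 82%, 83.7%, 84.7% and 89.4%, against 95.1% to 97.5% for the ribosomal protein genes.

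Only 3 core genes had a list in which no annotated start was covered. The start of Rps4x was covered with meclizine and lay 81 to 189 bp outside the peak in the other 5 lists. The start of Rpl36 lay 7 bp outside the peak in Q7SST, 13 bp outside with cyproheptadine and 5 bp outside with meclizine. The start of Rpl27a was uncovered with cyproheptadine only, where the nearest peak ended 179 bp from it and the promoter held 2 peaks in place of the single peak of the other 5 lists.

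At the principal start, the start of the main annotated transcript, the strongest peak of some genes began just inside the gene while covering another annotated start. It began 82 to 452 bp downstream of the principal start in Rpl5 and 15 to 49 bp downstream in Rpl8 in all 6 lists, and 19 to 93 bp downstream in Rpl38 in all lists but DKI.

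Where the strongest peak lay over the principal start, it reached further into the gene than away from it. Its upstream part had a median of 580.5 (cyproheptadine) to 646.5 bp (Q111SST) and its downstream part a median of 1264 (DKI) to 1450 bp (loxapine). For all protein-coding genes these medians were 537 to 605 bp and 959 to 1192 bp. The downstream share of the peak was 68.5% to 70.4% in the ribosomal protein genes and 64.0% to 66.5% in all genes. A peak with more bases upstream than downstream was found in 7.14% to 12.2% of them, against 21.1% to 24.5% of all genes, and against 22.7% to 31.1% of the mitochondrial ribosomal protein genes. The proteasome genes, at 3.13% to 17.2%, and the translation factor genes, at 8.33% to 19.2%, overlapped the ribosomal protein genes in this share, so the downstream lean was not particular to them. Rpl36al was the clearest case of the opposite shape. Its principal start lies within 1 kb of a start of Mgat2, and its peak in Q111SST reached 2648 bp upstream and 855 bp downstream.

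**Figure D1:**
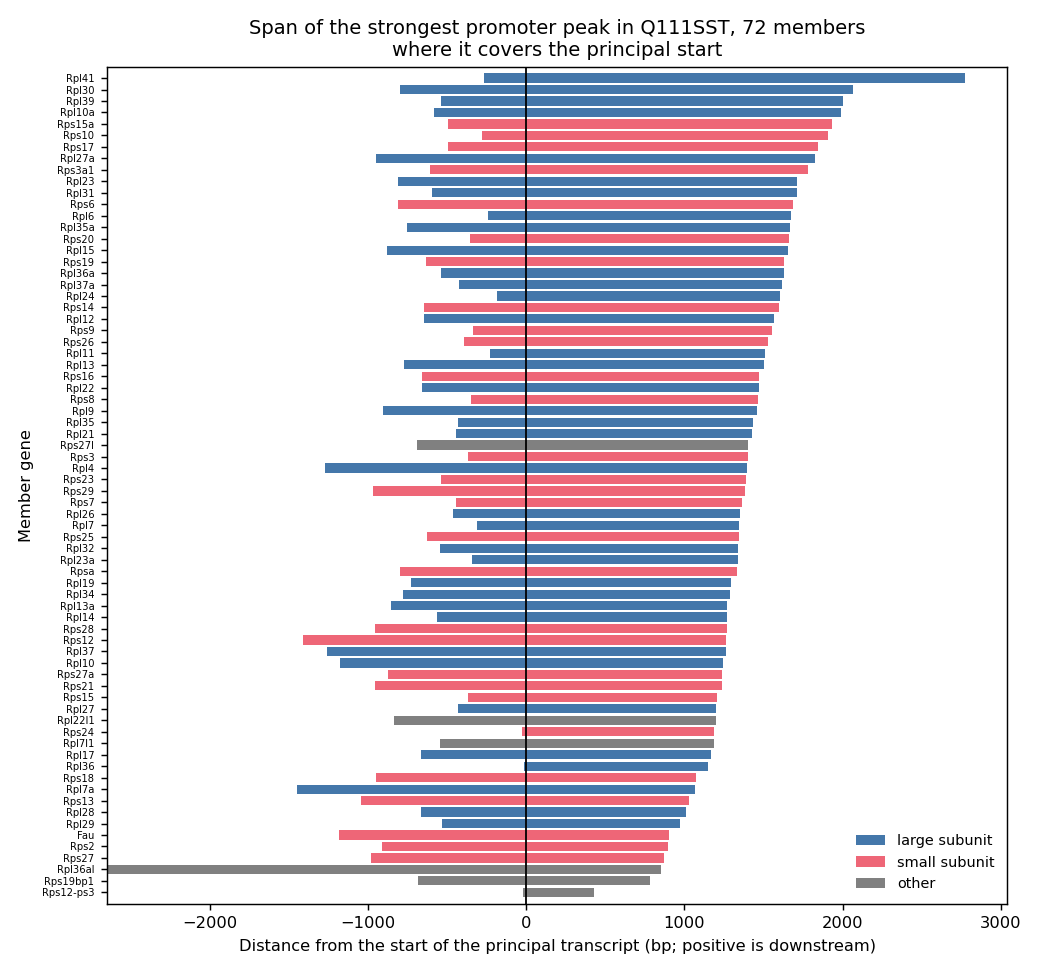
Each bar is the strongest promoter peak of a gene in Q111SST, drawn to scale in bp from the start of its principal transcript (0, vertical line; positive values are downstream), for 72 genes whose strongest peak covers that start. In all but 8 genes the bar is longer on the downstream side, and Rpl36al reaches furthest upstream.

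Strength was the highest score of the peaks at a promoter. The score is the authors' own and its scale is not given in the sources used here, so it was also expressed as a percentile rank among all marked protein-coding genes of the same list, where 50 is the middle. Although every core gene was marked, the marks were of middling strength. The median rank of the marked ribosomal protein genes was 46.7 in Q7SST and 48.4 in Q111SST. In treated cells it was 48.0 (cyproheptadine), 48.7 (loxapine), 44.8 (DKI) and 46.6 (meclizine). Their median score was 79 (DKI) to 117 (meclizine), against 84 to 122 for all marked genes.

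The ranks were also less spread than those of all genes. The lower quartile was 29.6 to 36.0 and the upper quartile 65.2 to 70.3. From 1.23% (loxapine) to 10.0% (Q7SST) of the genes reached rank 90, where all genes had 9.92% to 10.1%. From 13.8% to 17.3% lay below rank 25, where all genes had 24.8% to 25.2%. The large subunit genes had median ranks of 42.4 to 52.0 and the small subunit genes of 38.1 to 47.6. Among all peaks of a list, promoters or not, the median ribosomal protein promoter stood at percentile 73.4 (DKI) to 82.5 (loxapine), and the median over all marked genes was slightly higher in each list, at 76.6 (DKI) to 83.1 (loxapine).

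By mean rank over the lists the strongest gene was Rps27a, which encodes ubiquitin fused to a small subunit protein, with its Q111SST peak at chr11:29546869-29548981. Its scores were 174 in wild-type and 204 in mutant cells with vehicle, and 134 (cyproheptadine), 171 (loxapine), 172 (DKI) and 197 (meclizine) in treated cells, and its ranks lay between 86.1 (loxapine) and 96.0 (Q111SST), with a mean of 90.3. Its peak also spans a start of Clhc1, so the value is shared by both genes. In its window, shown above, the CpG ratio was 0.369, below the median of the core genes. The next strongest were Rpl37 (mean rank 88.9), the paralogue Rpl22l1 (88.0) and Rpl27 (87.6), none of which has another coding start within 1 kb.

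Among the weakest genes was Rpl36, which encodes a large subunit protein, with a mean rank of 11.1. Its scores were 40, 28, 22, 33, 69 and 46 in the same order of lists. Its ranks of 3.30 to 8.71 in 5 lists contrasted with 35.6 with DKI, where its peak was 214 bp wide. Rpl35 (12.5), Rpl12 (13.2) and Rpl36al (14.0) also had low mean ranks, and each of these has another coding start within 1 kb (Arpc5l, Lrsam1 and Mgat2).

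**Figure D2:**
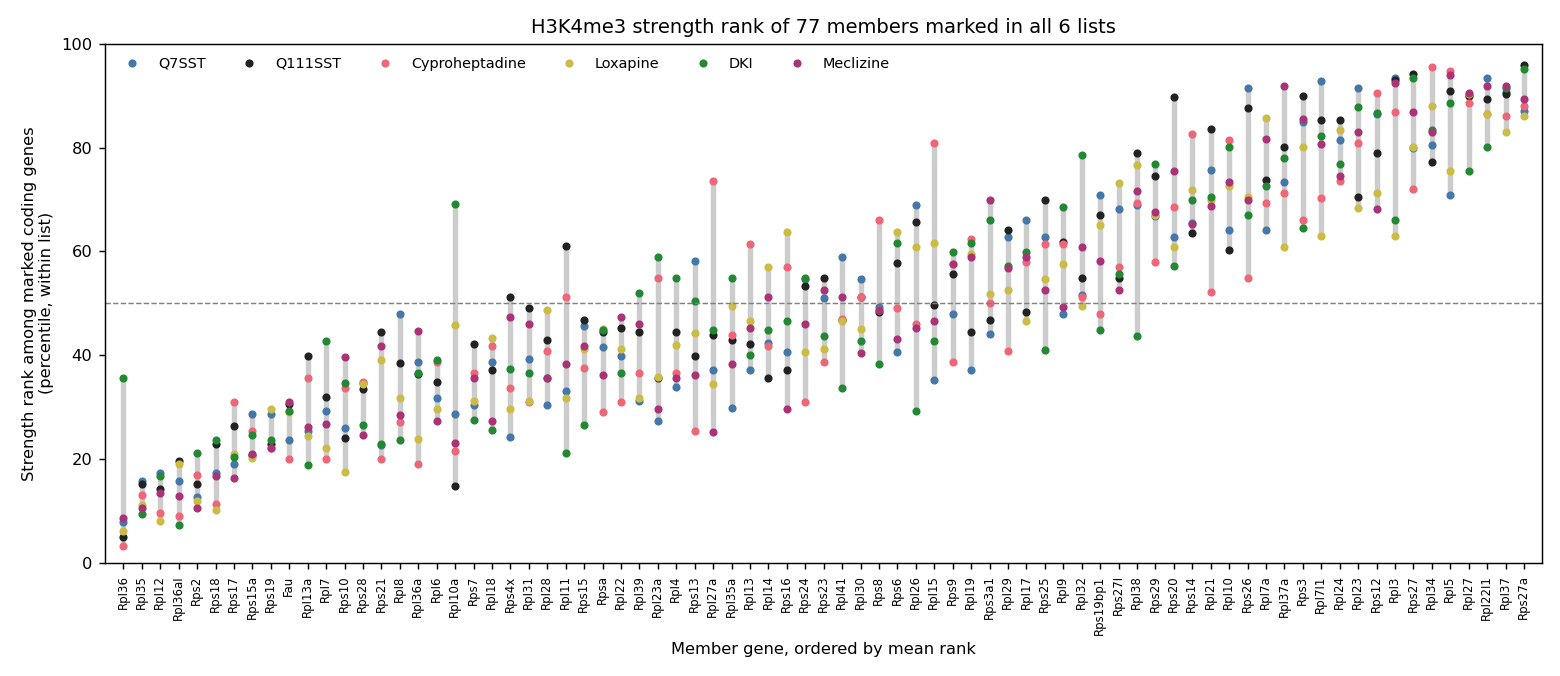
The vertical axis is the H3K4me3 strength rank (percentile among marked coding genes of the same list) and each column is 1 of 77 genes marked in all 6 lists, ordered by mean rank. Points are the 6 lists and the grey line joins the lowest and highest. Mean ranks run from 11.1 (Rpl36) to 90.3 (Rps27a), and the points of Rpl10a, Rpl27a and Rpl15 are spread furthest.

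Paralogues and their parents could differ widely. Rpl22l1 ranked from 80.2 to 93.4 while Rpl22 ranked from 30.9 to 47.3, so their ranges over the 6 lists did not overlap. Rpl7l1 ranked from 63.0 to 92.9 and was above Rpl7, at 19.9 to 42.8, in all 6 lists. Rps27, at 72.0 to 94.2, was above Rps27l, at 52.6 to 73.1, in each list. Rpl36al, at 7.22 to 19.7, was below Rpl36a, at 19.1 to 44.6, in each list. With 1 list per condition, the spread over the 6 lists mixes conditions and technical variation, and it is the only spread available.

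The 2 genes named outside the numbering ranked at or below the median of the ribosomal protein genes in each list, and Rpsa was at that median with DKI. Rpsa, which encodes a small subunit protein also known as the laminin receptor, scored 102, 104, 63, 103, 79 and 102 in the order Q7SST, Q111SST, cyproheptadine, loxapine, DKI and meclizine, and ranked from 29.0 to 45.02. Fau, a ubiquitin-like protein fused to a small subunit protein, scored 75, 85, 52, 80, 62 and 94 and ranked from 19.9 to 30.9. The start of Fau lies within 1 kb of that of Mrpl49, which encodes a mitochondrial ribosomal protein. Such a neighbour was found for 16 of the 90 genes. The share over all protein-coding genes is not given here, so this count does not show whether such neighbours are unusual.

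The order of the genes was largely kept between lists. Over the 80 genes, the Spearman correlation of ranks between 2 lists was 0.765 (Q111SST and DKI) to 0.924 (Q111SST and meclizine), and over all 11713 genes marked throughout it was 0.778 to 0.915. These are correlations across genes, which are not independent replicates, and the lists share promoter sequence and annotation. The range of a gene's rank over the 6 lists had a median of 21.9 points, against 22.9 for all genes.

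Promoters with a pyrimidine run of at least 8 ranked higher than those without. The 25 core genes with such a run had median ranks of 54.7 (Q7SST) to 59.6 (loxapine), and the 50 without had 38.6 (Q7SST) to 45.6 (Q111SST), and the tract group was the higher in each list. The 8 core genes with a C followed by 4 pyrimidines at the start did not keep to this order, at 43.9 against 46.9 for the other 67 with cyproheptadine and 45.7 against 46.6 with loxapine, and were the higher in the other 4 lists. The 29 core genes that hold a snoRNA, which carry 57 of them, had median ranks of 48.4 to 57.2, and the 46 without had 40.3 to 47.9. Of all 21911 protein-coding genes, 258 hold a snoRNA. List by list the gap was small in Q111SST (48.4 against 47.9), with loxapine (48.7 against 46.2) and with meclizine (48.6 against 46.0). It was larger in Q7SST (51.7 against 40.3), with cyproheptadine (57.0 against 40.7) and with DKI (57.2 against 41.9). Split by motif, the core genes with CCGGAAG had median ranks below those without in all lists but cyproheptadine. The gap was smallest in Q111SST (47.9 against 48.4) and largest with DKI (40.9 against 54.8). Those with AAGATGG were lower in all lists but DKI, with the smallest gap with loxapine (41.3 against 48.7) and the largest in Q7SST (31.1 against 47.9). Those with CACGTG were higher in all lists but Q111SST and those with CCAAT in all but loxapine. Those with GGGCGG were lower in 4 lists, higher with cyproheptadine and nearly equal with meclizine (46.3 against 46.0). None of these differences was tested, and the groups overlap in their genes. GC content had Spearman correlations of -0.190 to -0.0579 with rank over the 75 core genes, close to the -0.175 to -0.0833 of all marked genes.

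Other sets of housekeeping genes were also marked but stood higher in the lists. All 78 mitochondrial ribosomal protein genes were marked in all 6 lists, with median ranks of 56.0 to 69.6. Of 40 proteasome subunit genes 38 were marked, with median ranks of 58.0 to 69.3. Of genes that belong with the ribosome but fall outside the symbol rule, 5 were examined, among them Rack1 and the stalk genes Rplp0, Rplp1 and Rplp2. All 5 were marked in all 6 lists, with median ranks of 51.7 to 72.0. All 31 initiation and elongation factor genes were marked, with median ranks of 50.1 to 61.1, and all 32 ribosome assembly genes, with median ranks of 54.4 to 59.7. In each list the median of the cytosolic core genes, at 44.1 to 48.4, was below that of these 5 sets.

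**Figure D3:**
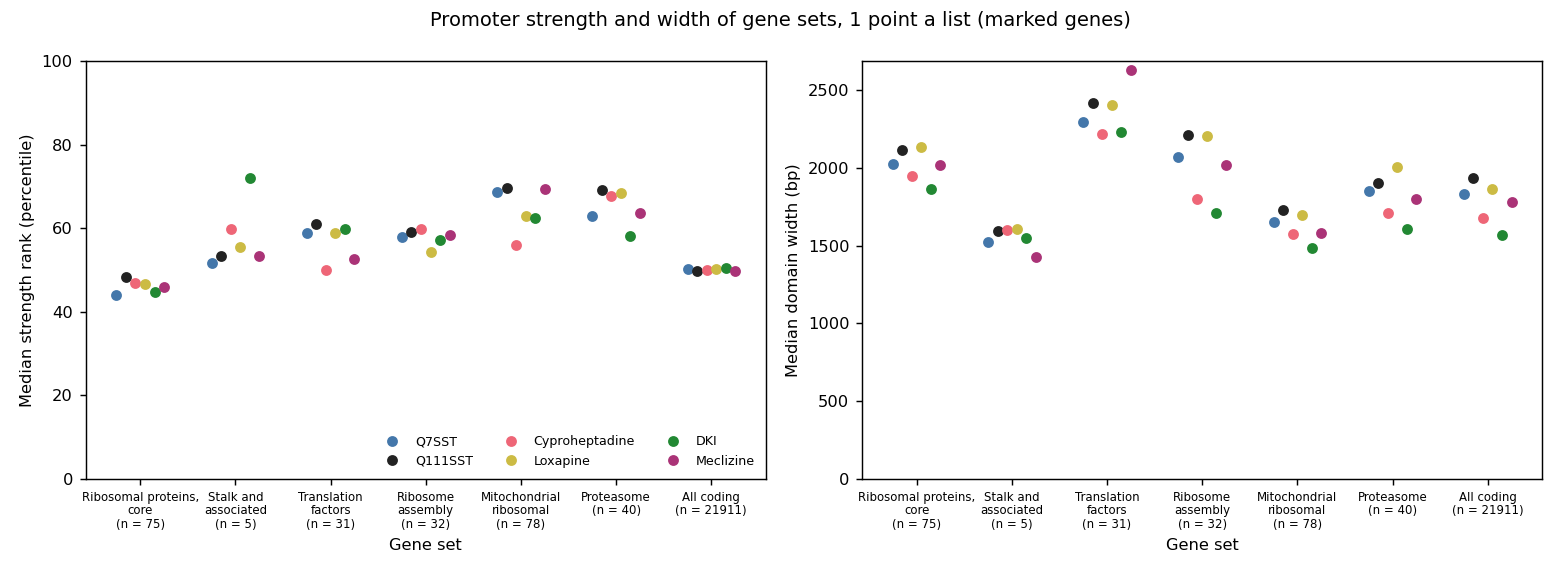
Left, the median strength rank (percentile) of the marked genes of each set, and right, their median domain width in bp, with 1 point for each of the 6 lists. The core ribosomal protein genes lie between 44.1 and 48.4 on the left, below the other sets, and are wider than the mitochondrial ribosomal protein genes on the right.

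Width gave a different picture from strength. Domain width was the summed width of the peaks at a promoter, and its median in the ribosomal protein genes was 2018.5 bp in Q7SST and 2072 bp in Q111SST. It was 1940 bp after cyproheptadine, 2125 bp after loxapine, 1863 bp after DKI and 2021 bp after meclizine. The median over all marked genes was 1569 (DKI) to 1936 bp (Q111SST), and as a percentile within each list the ribosomal protein genes had median width ranks of 57.0 (Q111SST) to 66.9 (DKI). The mitochondrial ribosomal protein genes were narrower, at 1485 to 1729 bp, and the translation factor genes wider, at 2219 to 2627 bp. Several peaks at the promoter were found in 6.02% to 13.6% of the ribosomal protein genes, against 14.0% to 18.1% of all genes, so split domains were no more frequent among them.

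Summed over all annotated starts, the widest domain by its median over the lists was that of Rpl3, which encodes a large subunit protein next to the peptidyl transferase centre. Its width was 3844 (Q7SST), 3519 (Q111SST), 3865 (cyproheptadine), 4030 (loxapine), 3938 (DKI) and 3455 bp (meclizine), in 2 peaks in each list. In Q7SST Rps14 was wider, at 4562 bp. Rpl36al (median over the lists 3470.5 bp), Rps14 (3398 bp), Rpl41 (3057 bp) and Rpl30 (2827 bp) followed. Among the narrowest were Rpl36 (1019 bp), Rps19bp1 (1290.5 bp), Rpl29 (1505.5 bp) and Rpl8 (1539.5 bp), so Rpl36 was both weak and narrow. The sums for Rpl3 and Rps14 join separate peaks at different starts. At the principal start alone Rpl3 was 2826 to 3351 bp wide and Rps14 2073 to 2388 bp, and Rpl36al, at 3348 to 3605 bp, was the widest of the 80 genes in each list.

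In a few genes the strongest peak belonged to another annotated start more than 1 kb from the principal one. This was so for 2 to 4 of the genes in a list, against 9.37% to 10.1% of all genes. The highest peak of Rpl3 lay 7234 to 7347 bp upstream of the principal start in 5 lists, and with DKI it was the peak over the principal start. At the principal start alone, Rpl3 ranked from 42.4 to 66.7 in place of 63.0 to 93.4. The highest peak of Rpl18 lay 1402 to 1738 bp inside the gene in all 6 lists, and at its principal start Rpl18 ranked from 2.88 to 9.55 in place of 25.6 to 43.4. The other cases were Rps14 in Q7SST (25366 bp upstream), Rps18 with loxapine and DKI (3890 and 3858 bp downstream), and Rpl10a (1052 bp downstream) and Rps24 (3655 bp upstream) with DKI. A peak at another annotated start does not show which start is transcribed.

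Each condition was then set beside Q111SST, the mutant vehicle control, which all 5 comparisons share. The first sets the wild-type line beside the mutant line, and the other 4 set mutant cells with a compound beside mutant cells with vehicle. With 1 list per condition, a difference cannot be told apart from one between libraries. None of the 90 genes was marked in another list but not in Q111SST, where 8.64%, 0.735%, 2.43%, 0.647% and 2.46% of the genes unmarked in Q111SST had gained a mark in Q7SST and with cyproheptadine, loxapine, DKI and meclizine. Between 2 and 3 of the 90 had lost the mark in each list, all with pseudogene names, where 3.56%, 5.7%, 2.12%, 4.94% and 1.37% of all marked genes had lost it. These counts are for peaks of any score. With a minimum score of 47, core genes changed too: Rpl36 was marked with DKI (score 69) but not in Q111SST (28), and Rpl12 in Q111SST (55) but not with cyproheptadine (36).

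In Q7SST the ribosomal protein genes ranked slightly lower than in Q111SST. The rank was higher in 34 of 80 genes and lower in 46, where 53.2% of all genes were higher, with a median change of -2.68 points against 0.69 for all genes. Changes of 10 points or more were up in 6 genes (22.4% of all genes) and down in 16 (17.9%). Furthest above Q111SST were Rpl23, at 91.5 against 70.6, Rps13, at 58.2 against 39.9, and Rpl17, at 66.1 against 48.4. Furthest below were Rpl11, at 33.2 against 61.1, Rps4x, at 24.3 against 51.3, and Rps20, at 62.8 against 89.7. Rpl11 binds the smallest ribosomal RNA together with Rpl5, and both proteins can inhibit Mdm2, the regulator of p53.

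With cyproheptadine the rank was higher in 29 of 81 genes (39.7% of all genes), and the median change was -4.33 points against -2.59. It was up by 10 points or more in 13 (16.3% of all genes) and down in 26 (26.9%). Furthest above Q111SST were Rpl15, at 80.8 against 49.8, Rpl27a, at 73.6 against 43.8, and Rpl10, a late-joining large subunit protein, at 81.5 against 60.3. Rpl15 and Rpl27a had 1 peak in Q111SST and 2 with cyproheptadine. Furthest below were Rps26, at 54.9 against 87.8, Rpl21, at 52.2 against 83.5, and Rps21, at 19.9 against 44.5.

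With loxapine the rank was higher in 26 of 81 genes (46.7% of all genes), with a median change of -4.01 points against -0.63. It was up by 10 points or more in 9 (17.4% of all genes) and down in 21 (18.5%). Rpl10a, at 45.8 against 14.7, Rps16, at 63.7 against 37.1, and Rpl14, at 57.0 against 35.7, were furthest above Q111SST. Rpl3, at 63.0 against 93.0, Rpl11, at 31.8 against 61.1, and Rps20, at 60.9 against 89.7, were furthest below. At the principal start alone Rpl3 was at 42.4 against 60.5, a difference of -18.1 in place of -30.0 points.

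With DKI the rank was higher in 38 of 81 genes (41.2% of all genes), and the median change of -1.20 points was above the -2.52 of all genes. With peaks at or above the median score of all lists pooled, this order turned, at -4.43 points against -4.31, with 34.2% of the genes higher against 38.9% of all genes. It was up by 10 points or more in 14 (19% of all genes) and down in 23 (28.5%). Rpl10a, at 69.2 against 14.7, had the largest difference of any gene of the set, but its strongest peak with DKI lay 1052 bp inside the gene, and at the principal start it was at 7.32 against 14.8. Rpl36, at 35.6 against 4.98, and Rpl32, at 78.6 against 54.9, were the next highest. Rpl11, at 21.1 against 61.1, Rpl26, at 29.2 against 65.7, and Rpl38, at 43.8 against 79.0, were the lowest. Rpl38 is known for the skeletal patterning defects of mice with a mutated copy, and Rpl11, Rpl26 and Rps26 are among the genes mutated in the human anaemia of Diamond-Blackfan type.

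With meclizine the rank was higher in 29 of 81 genes (49.2% of all genes), with a median change of -4.47 points against -0.12. It was up by 10 points or more in 8 (14.8% of all genes) and down in 14 (14%). Rps3a1, at 70.0 against 46.8, Rps10, at 39.7 against 23.9, and Rpl14, at 51.2 against 35.7, were furthest above Q111SST. Rpl11, at 38.3 against 61.1, Rpl26, at 45.3 against 65.7, and Rpl27a, at 25.2 against 43.8, were furthest below. Where a gene moved by 10 points or more, its strongest peaks in the 2 lists overlapped in 22 of 22 genes for Q7SST, 39 of 39 for cyproheptadine, 29 of 30 for loxapine, 36 of 37 for DKI and 22 of 22 for meclizine.

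Of the 80 genes marked throughout, 18 ranked lower in all 5 lists than in Q111SST (Rpl11, Rpl13a, Rpl21, Rpl24, Rpl29, Rpl31, Rpl36al, Rpl38, Rps15, Rps20, Rps21, Rps23, Rps25, Rps27, Rps27a, Rps3, Rps4x and Rps7). Another 5 ranked higher in all 5 (Rpl10, Rpl10a, Rpl14, Rpl34 and Rps14). At the principal start alone the 18 were again lower in all 5 lists, but 2 of the 5 were not higher in each: Rps14 was at 60.9 against 63.7 in Q7SST, and Rpl10a at 7.32 against 14.8 with DKI. Of all 11713 protein-coding genes marked throughout, 17% were lower in all 5 lists and 11.8% were higher. Since the 5 lists are set against the same Q111SST list, a high or low value in that list alone would give such a count. Rps20 was at least 10 points below Q111SST in each list. Its scores were 130 (Q7SST), 177 (Q111SST), 104 (cyproheptadine), 125 (loxapine), 93 (DKI) and 163 (meclizine). The Q111SST peak of Rps20 was at chr4:3834006-3836017 and that of Rpl11 at chr4:136051883-136053622. The scores of Rpl11 were 90, 126, 85, 84, 53 and 105 in the same order, so Q111SST was the highest for both genes, in score as in rank.

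The domains were narrower than in Q111SST with cyproheptadine, DKI and meclizine, but less so than those of other genes. The median width ratio to Q111SST was 1.01 (Q7SST), 0.967 (cyproheptadine), 1.03 (loxapine), 0.920 (DKI) and 0.981 (meclizine), and over all genes it was 0.971, 0.878, 0.986, 0.823 and 0.940. The domain was wider in 48 of 80 genes in Q7SST (39.6% of all genes), in 29 of 81 with cyproheptadine (12.2%), in 56 with loxapine (43.7%), in 11 with DKI (6.98%) and in 30 with meclizine (24.7%). In each list the share of wider domains was thus above that of all genes.

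Large changes of width were few. Domains were narrower by 1.5-fold or more in 4 genes with cyproheptadine (16.3% of all genes) and 5 with DKI (19.6%), and in 0 genes in the other lists (6.4% in Q7SST, 6.25% with loxapine and 4.38% with meclizine). Among them were Rpl15, Rpl27a and Rpl36-ps4 with cyproheptadine, and Rpl10a, Rpl36, Rps10 and Rps2 with DKI. Rpl36 was 1167 bp wide in Q111SST and 214 bp wide with DKI. Domains were wider by 1.5-fold or more in 0 genes in Q7SST (5.45% of all genes) and with cyproheptadine (0.448%), and in 1 gene each with loxapine (2.02%), DKI (0.674%) and meclizine (2.37%).

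**Figure D4:**
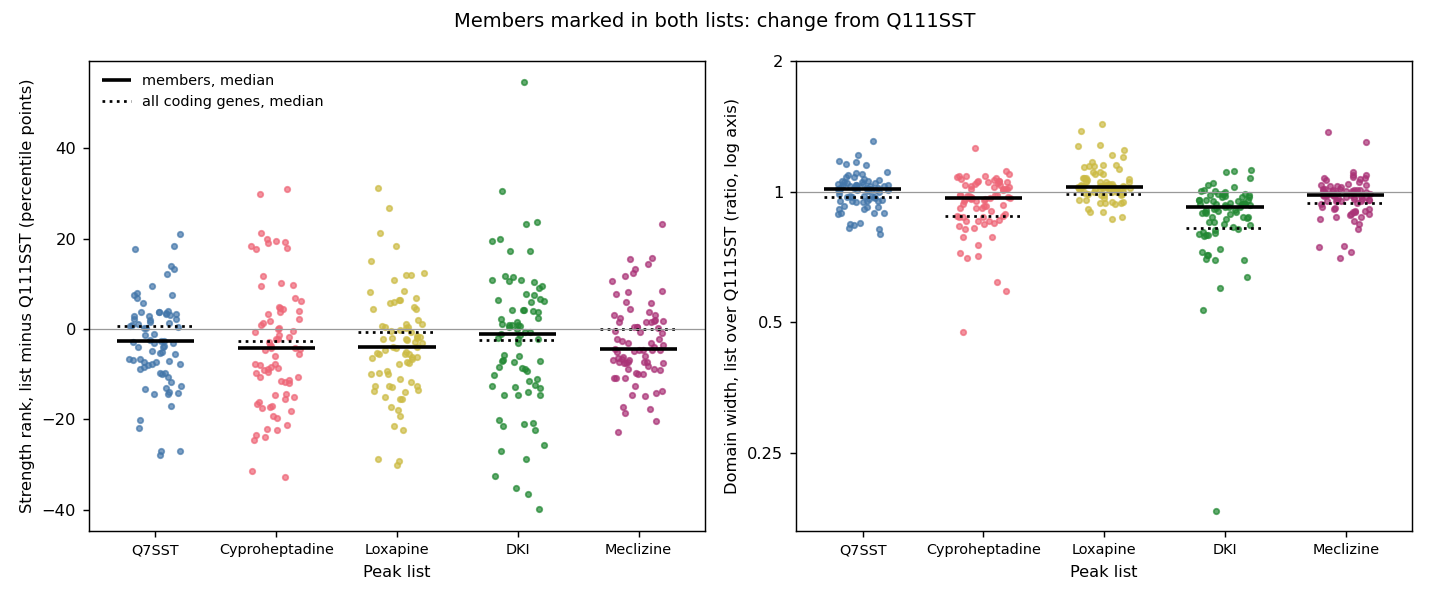
Each point is a ribosomal protein gene marked in both lists, with a few genes not drawn. Left, its strength rank minus that in Q111SST (percentile points), and right, its domain width over that in Q111SST (ratio, log axis), for the 5 other lists. Solid lines are medians of all ribosomal protein genes marked in both lists and dotted lines medians of all protein-coding genes. The solid line is below 0 in all 5 lists on the left and above the dotted line in all 5 on the right, and the lowest point on the right is Rpl36 with DKI.

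Ranked by width instead of score, the ribosomal protein genes were higher than in Q111SST in 60 of 80 cases in Q7SST (57.5% of all genes), in 62 of 81 after cyproheptadine (54.6%), 67 after loxapine (59.5%), 63 after DKI (53.6%) and 57 after meclizine (54.2%). The median change of width rank was 4.75, 9.27, 4.49, 9.19 and 4.56 points, against 1.18, 0.82, 1.11, 0.69 and 0.42 for all genes. The direction of the comparison with Q111SST therefore depended on whether a promoter was ranked by the score or the width of its peaks. Over the genes, the change in score rank and the width ratio had Spearman correlations of -0.238 (Q7SST), -0.447 (cyproheptadine), -0.257 (loxapine), -0.450 (DKI) and -0.285 (meclizine), and over all genes of -0.101, -0.276, -0.305, -0.292 and -0.370. Both measures come from the same peaks of the same 2 lists, and the part of peak calling and depth in either was not tested.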

How the data were processed

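H3K4me3 ChIP-Seq was measured in 6 conditions with 1 deposited peak list each. Chromatin was cut with micrococcal nuclease and single-end reads were sequenced. The submitters' processing notes name Trimmomatic 0.36, Bowtie2, SAMtools 1.3, MACS2 and the build mm10 (GRCm38). Caller settings, control libraries, pooling of replicates and the handling of reads with several matches are not given in the sources used here. The deposited score of each peak is the authors' own, a whole number of at least 10, and strength was compared mainly by ranks within each list, while widths in bp and, for some genes, scores were also set side by side as deposited. A peak ran past the chromosome end on 0 of 21 chromosomes of GRCm38.

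Genes came from GENCODE M21, counting each symbol once and leaving out the mitochondrial chromosome. Every annotated transcript start was used, and the principal start was that of the APPRIS principal transcript. Ranks were midrank percentiles. Named genes were those unmarked or uncovered in any list, the 5 strongest, weakest, widest and narrowest, the 3 largest rises and falls in rank per list, Rpsa, Fau and paralogue pairs. Genes that 2 parts of this rule name count under both, and a few items it names are not reported here, by name, in sequence or in the plots. The genes and comparison lists were chosen with earlier results of these data known. RefSeq starts and their windows came from a table of RefSeq promoters on GRCm38. With 1 list per condition and unknown read depth, no interval or test was made. Scripts used Python 3.11.15, numpy 2.4.6, pandas 2.3.3 and matplotlib 3.10.9, and were tested on simulated peaks. Alternatives were other score thresholds, list sizes, peak merging, windows, starts and definitions of strength and width.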

Additional observations from a re-analysis of the deposited data

How the results depend on the processing

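No paired analysis was possible because there was a single list for every condition. Counts of genes marked, with a covered start, ranked higher than in Q111SST or wider than in Q111SST stayed within 1.5 times the reported value with a minimum score of 47, the median over all lists pooled, lists cut to the 30758 strongest peaks, peaks within 1 kb merged, principal starts only, and the 75 core genes only. The last was chosen after seeing the data. With windows of 5 and 0 kb the same held for the counts marked, ranked higher and wider, and with the width of the strongest peak alone for the counts wider, the only ones run there. Ranking by summed width changed all 5 comparisons of rank: 60 (Q7SST), 62 (cyproheptadine), 67 (loxapine), 63 (DKI) and 57 (meclizine) genes were higher than in Q111SST, in place of 34, 29, 26, 38 and 29, and the cause was not tested. The median rank by score was 40.7 to 43.4 over the lists at the score threshold. It was 44.1 to 50.7 under the alternatives of list size, merging, windows, principal starts and core genes. Ranked by summed width, the median was 57.0 (Q111SST) to 66.9 (DKI). The number of reads behind each list is unknown, so a narrower or missing peak cannot be told apart from a shallower library.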
